A study of Bos taurus with 6 samples.

Results

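The loci described here were the 1201 genes of the cattle gene table that carried the Rfam name of a spliceosomal small nuclear RNA or of the U7 small nuclear RNA. They were 1201 of the 47249 genes in the table, and they were found by name alone, with no use of their values. The 10 classes were U6 with 961 loci, U1 with 74, U2 with 54, U6atac with 40, U4 with 31, U5 with 23, U7 with 10, U11 with 4, U12 with 3 and U4atac with 1. Total RNA from the testes of 3 calves aged 3 months and 3 bulls aged 3 years of the Wandong breed had been depleted of ribosomal RNA and sequenced from strand-marked libraries, with 1 library per animal and no treatment in either group. The values are FPKM, fragments scaled to the length of the RNA and the size of the library, so that levels are compared per length.

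The major spliceosome removes most introns with U1, which pairs with the 5′ splice site, U2, which pairs with the branch point, and a complex of U4, U5 and U6, in which U6 is held by U4 until it takes part in catalysis. The minor spliceosome removes a small set of introns with U11, U12, U4atac and U6atac in the corresponding places, and shares U5. U7 does not splice, and guides the cut that makes the 3′ end of histone messengers that lack a poly(A) tail. These RNAs are short and mostly without a poly(A) tail, and mammalian genomes hold many truncated or diverged copies of them, above all of U6.

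The libraries were checked against marker genes of testis cells. Summed FPKM of 5 spermatid markers was 13008 to 14730 in the bulls and at most 1.03 in the calves. In the library labelled calf 3, the sum of 6 Sertoli cell markers was 14.8, against 1456 and 1786 in the other calves, and that of 5 Leydig cell markers was 0.484, against 1083 and 1383. Its 4 oligodendrocyte markers summed to 12032, against 3.1 and 3.71, and its 2 astrocyte markers to 1413. The label of this library is therefore in doubt, and most sums and many of the called changes are also given without it. In bulk RNA, fewer cells of a type and less RNA per cell cannot be told apart.

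What the table counts under one small RNA gene was examined first. Each of the 1201 loci had 1 annotated RNA, of 50 to 215 bases, and 299 loci also carried transcripts that the authors had assembled from reads, 681 in all. The assembled transcripts had a median span of 61570 bases from start to end, 676 of them spanned the small RNA, and 409 (60.1%) overlapped another annotated gene. In all 6 libraries the gene's FPKM equalled the sum over its annotated RNA and its assembled transcripts (tolerance 0.001). A value in the gene table thus joined a small RNA with long transcripts across the same place, and both are given separately below.

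Over all loci, the summed FPKM of the gene table was 223.2, 247.1 and 386.7 in calves 1, 2 and 3 and 474.8, 587.6 and 572.2 in bulls 1, 2 and 3. This was 0.0209% to 0.0782% of the total FPKM of a library. The mean was 286 ± 88.3 in calves and 545 ± 61.2 in bulls (SD, n = 3 each), a log2 ratio of 0.93, or 1.21 without calf 3. Every bull lay above every calf in these values, but not under other scalings. As a share of the library's total, calf 3 (0.0659%) lay above bull 1 (0.0611%). Calf 3 also lay above bull 1 with upper quartile scaling, which divides a library by the upper quartile of the genes detected in all libraries, and above every bull with quantile normalization, which gives all libraries one distribution. The log2 ratio was then 0.54 and -0.0793.

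The annotated RNAs alone summed to 140.0, 143.2 and 254.2 in the calves and to 136.2, 218.9 and 194.9 in the bulls. These groups overlapped, and the log2 ratio of the means was 0.03, or 0.37 without calf 3. It was -0.35 with upper quartile scaling and -0.80 with quantile normalization, so that its sign depended on the scaling. The assembled transcripts summed to 83.2, 104 and 132 in the calves and to 339, 369 and 377 in the bulls, with a log2 ratio of 1.76. They made 34.2% to 42.1% of the summed FPKM in the calves and 62.8% to 71.3% in the bulls.

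**Figure D1:**
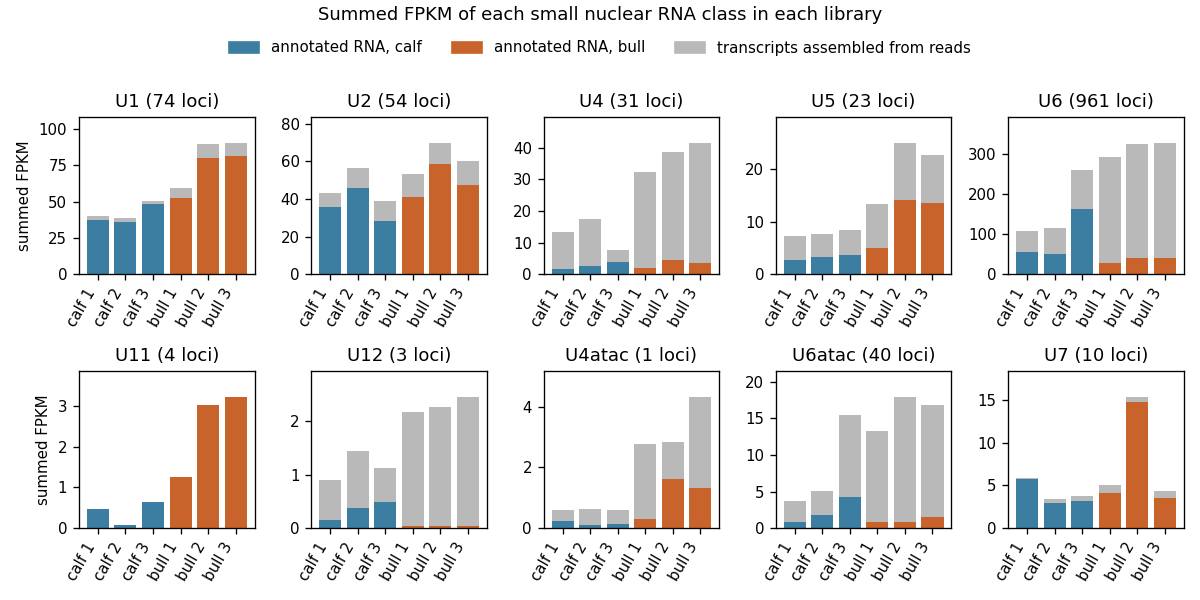
Summed FPKM (vertical axis, linear, from 0, with its own range in each panel) of the 10 small nuclear RNA classes in the 6 libraries. The coloured part of each bar is the annotated RNAs and the grey part the transcripts assembled from reads. The U6 bars of the bulls are mostly grey (87.1% to 90.2%), while those of U1 are mostly coloured in every library (4.12% to 11.6% grey).

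Most annotated RNAs were not detected in these libraries. According to the paper, cDNA was selected by size, near a length above that of most of these RNAs. The effect of that step on their values was not tested. Of the 1201, 648 (54.0%) were listed at 0 in all 6 libraries, among them 565 of the 961 U6 RNAs but only 2 of the 23 U5 RNAs. Of each library's annotated RNAs, 253 to 298 were above 0. Low values of RNAs of different length fell on one common step per library, which matched a mean coverage of 1 read over each base, and 91.3% to 94.9% of the low values were whole numbers of covered bases (tolerance 0.05 bases, which 10% of all possible values would meet). On this step an FPKM of 1 stood for a mean coverage of 8.09 in calf 3 to 15.5 in bull 1. In calf 2 the step rested on 3 RNAs against 2 at the next commonest value.

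Read this way, 206 of the 553 RNAs above 0 never passed a mean coverage of 1.5, and 97 reached 10 in at least 1 library. Of these 97, 48 were U6, 21 U1, 13 U2, 8 U5, 2 each U4 and U7, and 1 each U11, U4atac and U6atac. No U12 RNA reached it. The values therefore rest on few of the loci.

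For the test of calves against bulls, loci that reached an FPKM of 1 in 3 or more libraries were kept, and a locus was called where the adjusted p was below 0.05 and the log2 fold change at least 1 in size. By their values in the gene table, 93 of the 1201 loci passed, of which 32 were called higher in bulls (34.4%) and 0 lower, while 57 had an unadjusted p below 0.05. Of the 18115 genes tested, 35.7% were called higher and 9.61% lower, so the share called higher was near that of all genes. The median log2 fold change of the 93 loci was 0.71, against 0.43 over all genes tested. All bulls lay above all calves in 55 of the 93 (59.1%) and below in 6 (6.45%), against 46.1% and 21.3% of all genes tested. A locus could pass the filter through its bulls alone, so these counts describe the 93 and not all 1201.

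The 32 called loci were 16 of U6, 5 of U1, 3 each of U4 and U6atac, 2 of U5 and 1 each of U2, U11 and U4atac. Of the 32, 27 carried assembled transcripts, and in 26 of these the assembled transcripts exceeded the annotated RNA in the bulls. All 16 of the called U6 loci were of this kind. The remaining 5 called loci held their annotated RNA alone.

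The annotated RNA alone passed the same filter in 31 loci, of which 5 were called higher (16.1%) and 0 lower, with 11 at an unadjusted p below 0.05. The background in the transcript table was 34.8% higher and 9.37% lower of 23212 transcripts. The median log2 fold change of the 31 was 0.49, against 0.40 over all transcripts tested. Without calf 3, 6 of the 31 were called higher and 0 lower. Over all loci, 27 assembled transcripts passed, of which 15 were called higher and 0 lower, or 15 and 1 without calf 3. An RNA or transcript could pass the filter through its bulls alone, so these counts describe the 31 and the 27 only.

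**Figure D2:**
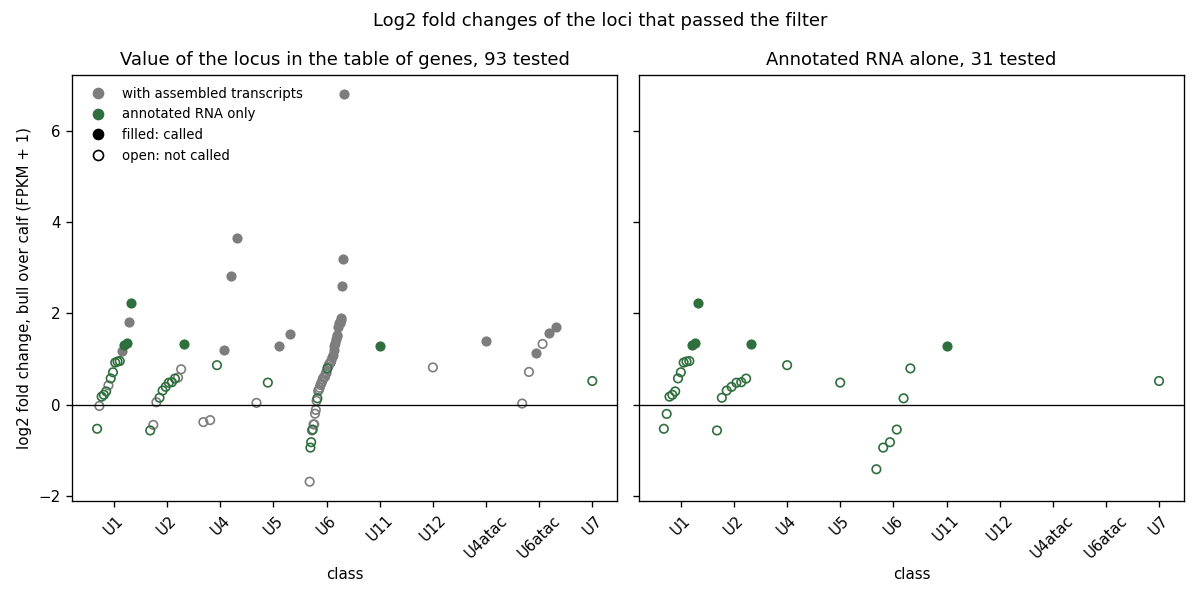
Log2 fold change, bull over calf, on the log2(FPKM + 1) scale (vertical axis) for each locus that passed the filter, by class (horizontal axis). The left panel shows 93 loci in the gene table, grey where the locus carried assembled transcripts and green where it did not, and the right panel the 31 annotated RNAs, with called loci filled. Of the 32 filled points on the left, 27 are grey, and 5 remain filled on the right.

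U1 had the largest annotated sum of the classes in the bulls. Annotated U1 RNAs summed to 37.1, 36.0 and 48.2 FPKM in the calves and to 52.8, 80.0 and 81.1 in the bulls, a mean of 40.4 ± 6.71 against 71.3 ± 16.0 (SD, n = 3 each). Every bull lay above every calf, with a log2 ratio of 0.82, or 0.96 without calf 3. The ratio was 0.42 with upper quartile scaling and 0.12 with quantile normalization, and with both scalings the groups overlapped. U1 made 36.5% to 41.6% of the annotated sum in the bulls and 18.9% to 26.5% in the calves.

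The U1 signal came from few places. The 28 loci whose RNA was 164 bases long held 82.7% to 95.9% of the annotated U1 sum, and 5 loci held the first 50% of its mean. Loci of one class with gaps of at most 100 kb between neighbours were joined into position groups of at least 3 loci. The 4 such U1 groups together had 21 loci and held 75.3% to 88.3% of the annotated sum. Copies in such a group can be near-identical, in which case the reads of one locus cannot be told from those of another, so sums over a group carry less of that uncertainty than single loci.

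The U1 group at chr3:21305827-21332343, with 3 loci outside annotated genes, summed to 9.63, 8.50 and 14.0 FPKM in the calves and to 16.4, 27.9 and 24.4 in the bulls. The group at chr3:22573731-22803376, with 7 loci, summed to 0.776, 2.16 and 0.156 in the calves and to 4.95, 9.66 and 8.16 in the bulls. In both groups every bull lay above every calf, with log2 ratios of 1.10 and 2.88, or 1.34 and 2.37 without calf 3. With upper quartile scaling and with quantile normalization, tried on the position groups after seeing the data, the first overlapped (0.70 and 0.50) and the second did not (2.46 and 1.84). The second of them rested on 1 locus, ENSBTAG00000054612.

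The U1 group at chr21:44955172-44996271, with 6 loci, summed to 8.50, 6.71 and 4.10 FPKM in the calves and to 13.8, 10.3 and 16.8 in the bulls, again apart, with a log2 ratio of 1.08, or 0.84 without calf 3. It overlapped with upper quartile scaling (0.66) and with quantile normalization (0.38). The group at chr19:9625022-9651866 had 5 loci inside TEX14, a gene of the bridges that join germ cells. It summed to 11.3, 11.02 and 18.0 in the calves and to 11.5, 22.1 and 21.6 in the bulls, and the age groups overlapped, with a log2 ratio of 0.45, or 0.72 without calf 3. They also overlapped with upper quartile scaling (0.06) and with quantile normalization (-0.16).

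Of the U1 RNAs, 3 were called, and they were singled out after their values had been seen, apart from ENSBTAG00000048757, which was also the highest of the class. ENSBTAG00000048757 (chr3:21305827-21305990) was at 4.14, 3.66 and 5.70 FPKM in the calves and at 9.14, 18.2 and 11.8 in the bulls. Its log2 fold change on log2(FPKM + 1) was 1.32 ± 0.29 (SE, limma adjusted p = 0.0108), and 1.47 without calf 3. It fell below the fold threshold, at 0.97, with upper quartile scaling and at 0.84 with quantile normalization.

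ENSBTAG00000054612 (chr3:22749008-22749171) was at 0.506, 1.48 and 0 FPKM in the calves and at 3.91, 9.19 and 6.75 in the bulls. Its mean coverage was 0 to 16.6 in the calves and 60.5 to 135 in the bulls, so the groups were well apart. Its log2 fold change was 2.23 ± 0.43 (adjusted p = 0.00595), 1.92 without calf 3, and it was called under every setting tried.

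ENSBTAG00000051054 (chr21:44955172-44955335) was at 2.40, 1.49 and 1.04 FPKM in the calves and at 2.88, 6.93 and 8.32 in the bulls. Its log2 fold change was 1.35 ± 0.40 (adjusted p = 0.0306). Without calf 3 the same fit gave 1.18 and an adjusted p of 0.0526, so the call was lost. In the gene table the locus stayed called without calf 3 (1.18, adjusted p = 0.0331). There the call was lost without calf 2 (0.0725), bull 2 (0.0948) or bull 3 (0.0896) and with either scaling.

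Other high U1 copies were not called. ENSBTAG00000049501 (chr19:9631701-9631864, inside TEX14) was at 2.98, 3.82 and 5.77 in the calves and at 2.99, 9.48 and 9.32 in the bulls, and bull 1 lay among the calves. ENSBTAG00000050444 (chr3:21327408-21327571) was at 3.12, 3.01 and 5.18 in the calves and at 5.27, 6.03 and 9.16 in the bulls, with a log2 fold change of 0.71 ± 0.29 (SE, adjusted p = 0.0812). Their neighbours did not all move one way. In the TEX14 group, ENSBTAG00000051285 was at 2.66, 2.29 and 3.69 in the calves and 5.58, 7.47 and 5.92 in the bulls, with a log2 fold change of 0.92 (adjusted p = 0.0147), below the fold threshold. Without calf 3 it was called (1.07, adjusted p = 0.00343). ENSBTAG00000052158 was at 4.91, 4.60 and 7.78 in the calves and at 2.27, 3.64 and 5.44 in the bulls. Of the 21 loci in the 4 groups, bulls lay above calves in 6, below in 1 and overlapped them in 14. These 21 were not filtered, and 13 of them reached a coverage of 10 in any library. Of the 13 U1 RNAs of the whole class that passed the filter for the test, bulls lay above calves in 7 and below in 0. Over all transcripts that passed it, the shares were 44.1% and 20.8%.

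For U2, the values of the age groups overlapped. Annotated U2 RNAs summed to 36.0, 45.7 and 28.3 FPKM in the calves and to 41.1, 58.3 and 47.4 in the bulls, a mean of 36.7 ± 8.74 against 48.9 ± 8.74 (SD, n = 3 each). The log2 ratio was 0.42, 0.26 without calf 3, 0.01 with upper quartile scaling and -0.29 with quantile normalization. The 17 loci of the position group at chr19:43195585-43334403 held 76.1% of the annotated U2 sum in calf 3 and up to 98.0% elsewhere.

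The highest U2 copy, ENSBTAG00000052292 (chr19:43242759-43242949), was at 11.98, 12.8 and 7.07 FPKM in the calves and at 13.3, 12.4 and 13.4 in the bulls. The next, ENSBTAG00000051505 (chr19:43210557-43210747), was at 10.2, 7.98 and 4.18 and then at 10.5, 10.9 and 11.4. ENSBTAG00000051514 (chr19:43294703-43294893) was at 5.82, 6.36 and 1.17 and then at 6.54, 3.85 and 5.73. In all of them calf 3 was the lowest library, and none was called (adjusted p = 0.326, 0.165 and 0.556). Without calf 3 their log2 fold changes were 0.07, 0.26 and -0.18.

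Of the U2 RNAs, 1 was called, and it passed the filter through its bulls alone. ENSBTAG00000049749 (chr19:43195585-43195775), at the edge of the same group, was at 0.183, 0.216 and 0.262 FPKM in the calves and at 1.43, 2.64 and 2.29 in the bulls. Its coverage was 2.12 to 2.62 in the calves and 22.1 to 38.8 in the bulls, and its log2 fold change was 1.33 ± 0.18 (adjusted p = 0.00128), 1.36 without calf 3, and 0.81 with quantile normalization, where it was not called. It was singled out after its values had been seen, as was ENSBTAG00000050245 (chr19:43284044-43284234), whose replicates were far apart. That copy was at 0.110, 7.88 and 3.99 in the calves and at 0.170, 12.1 and 0 in the bulls.

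**Figure D3:**
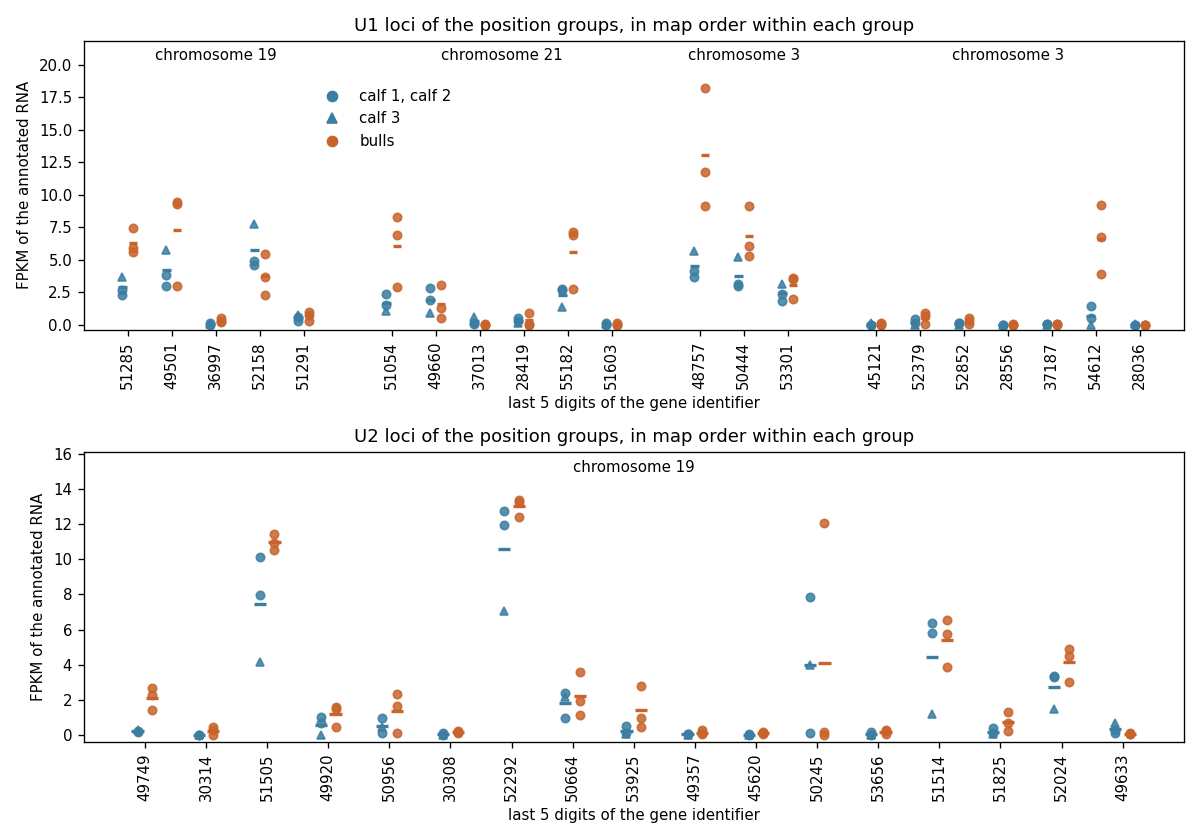
FPKM of the annotated RNA (vertical axis, linear) at each U1 locus of the 4 position groups and each U2 locus of the position group on chromosome 19, in map order along the horizontal axis and named by the last 5 digits of the identifier. Points are libraries, with calf 3 as a triangle, and bars are group means. A few copies of each group carry most of its signal, and at the 3 highest U2 copies calf 3 lies lowest.

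U4 and U5 act in the same complex as U6. Annotated U4 RNAs summed to 1.76, 2.58 and 3.87 FPKM in the calves and to 2.12, 4.53 and 3.55 in the bulls, which overlapped, with a log2 ratio of 0.31, or 0.65 without calf 3, that turned to -0.07 with upper quartile scaling and to -0.80 with quantile normalization. In the gene table the U4 sum had a log2 ratio of 1.53, or 1.27 without calf 3, with all bulls above all calves. The 3 highest U4 loci of that table held almost no small RNA.

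ENSBTAG00000044700, whose U4 RNA lies at chr1:68361091-68361241 inside ROPN1, a gene of the sperm tail's fibrous sheath, was at 0.553, 1.02 and 0 FPKM in the calves and at 16.0, 16.8 and 19.3 in the bulls. Its annotated RNA was at most 0.0689 in any library, and its assembled transcripts ran over 35160 bases. ROPN1 itself was at 0.294, 0.522 and 0.0345 in the calves and at 361, 355 and 388 in the bulls. The log2 fold change of the U4 locus was 3.65 ± 0.29 (adjusted p = 0.000143), and 3.37 without calf 3.

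ENSBTAG00000043668 (chromosome 9, no gene overlapped) was at 0.0362, 0.00459 and 0 in the calves and at 4.62, 6.79 and 7.29 in the bulls, with its U4 RNA at 0 throughout and a log2 fold change of 2.82 ± 0.19 (adjusted p = 7.1e-05), 2.81 without calf 3. ENSBTAG00000042215 had an assembled transcript across GCN1 and RPLP0, a ribosomal protein gene, and no reads on its U4 RNA. It was at 8.73, 9.86 and 1.46 in the calves and at 3.46, 3.81 and 4.51 in the bulls, with an adjusted p of 0.613, or 0.000977 and a log2 fold change of -1.07 without calf 3. RPLP0 was at 2270, 2234 and 217 in the calves and at 573, 594 and 546 in the bulls.

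U5, the one RNA that both spliceosomes share, had bulls above calves in its annotated RNAs also. Their sum was 2.67, 3.38 and 3.74 FPKM in the calves and 5.09, 14.0 and 13.6 in the bulls, with no overlap and a log2 ratio of 1.74, or 1.85 without calf 3. The ratio was 1.34 with upper quartile scaling, and 0.68 with quantile normalization, where the groups overlapped. Bull 1 was much nearer the calves than bulls 2 and 3 were. Of the 8 U5 RNAs that reached a coverage of 10, all bulls lay above all calves in 5 and below in 0. All 8 were highest in bull 2 (5) or bull 3 (3) and could be kept through 1 bull, so these counts describe the 8 only. Over all transcripts tested the shares were 44.1% and 20.8%, but after a different filter, which 1 U5 RNA passed.

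ENSBTAG00000049706 (chr10:12242073-12242188), one of the 3 highest U5 loci, was at 0.0379, 0.464 and 0 FPKM in the calves and at 0.982, 3.64 and 2.25 in the bulls, and did not pass the filter. The other two were mostly assembled transcripts. ENSBTAG00000044752, in SLC35A3, was at 0.210, 0.111 and 0.499 in the calves and at 3.58, 2.32 and 2.38 in the bulls, of which the annotated RNA made at most 0.281. ENSBTAG00000043100, in CINP, was at 2.19, 1.84 and 1.42 and then at 1.5, 1.95 and 2.25, with an adjusted p of 0.857.

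U6 values went opposite ways in annotated RNAs and in the gene table. In the gene table U6 summed to 107, 116 and 260 FPKM in the calves and to 292, 323 and 327 in the bulls, a log2 ratio of 0.96, or 1.49 without calf 3. The annotated U6 RNAs summed to 55.1, 50.1 and 161.6 in the calves and to 28.6, 41.7 and 39.6 in the bulls. Every bull lay below every calf, with a log2 ratio of -1.28, or -0.52 without calf 3, and the bulls also lay below with upper quartile scaling (-1.65) and quantile normalization (-2.42).

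A single locus held much of the bulls' U6 sum in the gene table. ENSBTAG00000052087, whose U6 RNA lies at chr5:82402612-82402715 and overlaps no annotated gene, was at 0.0464, 0 and 0 FPKM in the calves and at 112, 114 and 109.5 in the bulls. Its U6 RNA was at 0 in all 6 libraries, and the value came from 5 assembled transcripts within chr5:82373223-82413347. The log2 fold change on log2(FPKM + 1) was 6.80 ± 0.14 (adjusted p = 2.6e-06), and 6.78 without calf 3. Without this locus the gene table's U6 sum was 107, 116 and 260 in the calves and 180, 209 and 217 in the bulls, and calf 3 lay above the bulls.

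The second called U6 locus by size, ENSBTAG00000044593 in C15H11orf49, was at 0.0964, 0.0744 and 0.630 in the calves and at 12.6, 10.6 and 8.10 in the bulls (log2 fold change 3.18 ± 0.25, adjusted p = 0.000142, and 3.38 without calf 3). Its host gene was at 3.03, 2.62 and 10.9 and then at 40.3, 42.4 and 33.2, and its U6 RNA had a coverage of at most 0.986.

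Annotated U6 signal was spread over many copies, unlike that of U1 and U2. The 10 highest U6 RNAs held 25.7% of the mean sum, 31 held the first 50%, and the 15 loci in position groups held 1.5% to 3.2%. For U1 and U2 the 10 highest held 80.7% and 91.6%. Of the 961 U6 loci, 361 lay inside an annotated gene.

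The U6 RNAs inside genes summed to 44.5, 37.0 and 137 FPKM in the calves and to 18.8, 29.0 and 27.0 in the bulls, a log2 ratio of -1.55, or -0.71 without calf 3. Those outside genes summed to 10.6, 13.1 and 24.2 in the calves and to 9.79, 12.6 and 12.7 in the bulls, a log2 ratio of -0.45, or -0.02 without calf 3. Inside genes every bull lay below every calf, and outside genes the groups overlapped.

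Of the 48 U6 RNAs that reached a coverage of 10, 38 were highest in calf 3 and 42 were higher in calf 3 than in both other calves. Every bull lay below every calf in 21 of the 48. The share over all transcripts tested was 20.8%, but after a different filter, which 6 U6 RNAs passed, 3 of them with every bull below. The median of the 48 was 0.487, 0.541 and 1.96 FPKM in the calves and 0.189, 0.306 and 0.267 in the bulls. Of the 39 that lay inside genes, 33 (84.6%) were highest in calf 3. Calf 3 was the highest library in 18 of their 38 host genes (47.4%), and in 3976 (21.9%) of the 18115 genes tested. An RNA could reach a coverage of 10 through calf 3 alone, so the values of the 48 describe these chosen RNAs only. Of the U6 RNAs above 0 but under this coverage, 63 of 158 inside genes (39.9%) were highest in calf 3. Outside genes they were 34 of 190 (17.9%). The part that the other tissue markers of calf 3 have in these values was not tested.

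The 5 copies with the highest coverage in any library were named after their values had been seen. ENSBTAG00000053063 (chr10:53352453-53352556), the highest, was at 1.08, 1.37 and 13.6 FPKM in the calves and at 0.613, 0.859 and 0.277 in the bulls (log2 fold change -1.41 ± 0.77, adjusted p = 0.172). ENSBTAG00000042557, in APP, the amyloid precursor gene, was at 1.18, 0.589 and 6.91 in the calves and at 0 in every bull, while APP was at 158, 201 and 250 and then at 19.7, 24.2 and 26.1. In both, calf 3 was by far the highest library.

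ENSBTAG00000044681, in CYTH1, was at 0.348, 0.732 and 5.13 FPKM in the calves and at 0.0528, 0.295 and 0.179 in the bulls, while CYTH1 was at 13.3, 13.7 and 14.0 and then at 9.52, 9.13 and 9.28. ENSBTAG00000042298, in PCBP2, was at 2.45, 1.55 and 4.67 in the calves and at 1.25, 1.65 and 1.71 in the bulls. PCBP2 was at 42.9, 51.0 and 61.7 and then at 78.0, 83.1 and 79.2. Both copies were highest in calf 3, while in PCBP2 every bull lay above every calf.

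ENSBTAG00000044340, the third by coverage, in SENP6, a SUMO protease gene, had lower values in the bulls, while its host gene did not. It was at 3.03, 3.12 and 4.65 FPKM in the calves and at 0.830, 1.61 and 1.80 in the bulls, while SENP6 was at 26.3, 29.4 and 28.0 and then at 25.8, 31.7 and 27.4. Its log2 fold change of -0.94 (adjusted p = 0.0181) missed the fold threshold in the gene table, and it was called lower in 7 of the 11 other settings of that table, but not without calf 3 (-0.78).

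**Figure D4:**
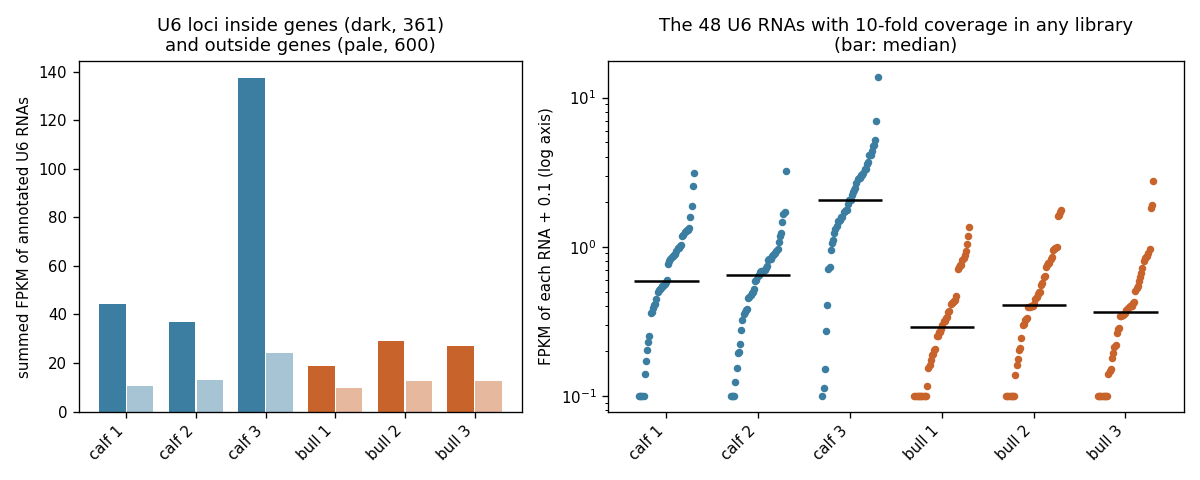
Annotated U6 RNAs in the 6 libraries. The left panel gives the summed FPKM (linear axis from 0) of the 361 loci inside genes and the 600 outside, and the right panel gives FPKM + 0.1 (log axis) of each of the 48 RNAs that reached 10-fold coverage, with the median as a bar. Calf 3 stands at 137 inside genes, and its median of 1.96 lies above that of every other library.

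Of the minor spliceosome's RNAs, U11 had reads on 1 of its 4 loci. ENSBTAG00000042723 (chr2:124806156-124806288, outside annotated genes) was at 0.482, 0.0803 and 0.641 FPKM in the calves and at 1.26, 3.02 and 3.22 in the bulls, with a coverage of 0.902 to 6.90 and of 19.4 to 44.4. Every bull lay above every calf, and the RNA passed the filter through its bulls alone. The log2 fold change on log2(FPKM + 1) was 1.29 ± 0.30 (adjusted p = 0.0134), 1.41 without calf 3. It stayed called with upper quartile scaling and was not called with quantile normalization (0.75, adjusted p = 0.0721). The other 3, ENSBTAG00000045054, ENSBTAG00000042459 and ENSBTAG00000043125, were listed at 0 in all libraries.

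The single U4atac locus, ENSBTAG00000043135, lies inside CLASP1, a microtubule protein gene. Its gene value was 0.599, 0.642 and 0.614 FPKM in the calves and 2.78, 2.85 and 4.32 in the bulls, with a log2 fold change of 1.40 ± 0.18 (adjusted p = 0.000954), or 1.39 without calf 3. It was 0.81 with quantile normalization, where it was not called. Its annotated RNA, at chr2:73247035-73247160, was at 0.226, 0.0954 and 0.133 in the calves and at 0.310, 1.63 and 1.33 in the bulls, and did not pass the filter. With either scaling bull 1 fell among the calves.

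No U12 RNA was well covered. ENSBTAG00000037110 (RNA at chr5:113470970-113471119) had a coverage of 0.528 to 0.654 in every library, ENSBTAG00000043843, in SESN1, of 1.02 to 3.59 in the calves and 0 in the bulls, and ENSBTAG00000036754, in CCDC148, of 2.36 in calf 3 and 0 elsewhere. Their sum was 0.149, 0.368 and 0.483 FPKM in the calves and 0.0358, 0.0384 and 0.0470 in the bulls. Every bull lay below every calf, also with either scaling, but on these few reads, and no U12 RNA passed the filter for the test. The gene value of ENSBTAG00000037110 was 0.802, 1.11 and 0.705 in the calves and 2.16, 2.27 and 2.45 in the bulls. Its log2 fold change of 0.82 ± 0.14 (adjusted p = 0.0034) was below the fold threshold, and its assembled transcripts overlapped POLDIP3 and CYB5R3.

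Annotated U6atac RNAs summed to 0.807, 1.83 and 4.20 FPKM in the calves and to 0.789, 0.845 and 1.59 in the bulls, which overlapped, with a log2 ratio of -1.09, or -0.29 without calf 3. The ratio was -1.45 with upper quartile scaling, where the groups overlapped, and -2.69 with quantile normalization, where every bull lay below every calf. Of the 40 U6atac RNAs, 1 reached a coverage of 10. In the gene table the U6atac sum was 3.69, 5.10 and 15.5 in the calves and 13.3, 17.9 and 16.8 in the bulls, a log2 ratio of 0.98, or 1.86 without calf 3. The 3 highest U6atac loci were ENSBTAG00000053363, on an unplaced scaffold, ENSBTAG00000042546, in UBE2K, and ENSBTAG00000043067, on chromosome 9, and their small RNA was at 0 except for 0.172 in calf 2 at ENSBTAG00000042546. ENSBTAG00000053363 was at 0.137, 0.0555 and 2.58 in the calves and at 3.15, 3.26 and 2.87 in the bulls, so that calf 3 lay beside the bulls. Its adjusted p was 0.0581, and 4.6e-05 without calf 3.

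U7 came almost wholly from 1 of its 10 loci. ENSBTAG00000044624 (chr5:103520372-103520433, outside annotated genes) held 90.4% of the mean annotated U7 sum. It was at 5.51, 2.09 and 3.18 FPKM in the calves and at 3.28, 14.2 and 2.83 in the bulls. Bull 2 stood alone, and bulls 1 and 3 lay among the calves. The log2 fold change was 0.52 ± 0.60 (adjusted p = 0.502), and -0.11 in the gene table without bull 2. ENSBTAG00000044892 was at 0, 0.804 and 0 in the calves and at 0.686, 0.512 and 0.222 in the bulls, and ENSBTAG00000044664, in IQUB, was at most 0.771 in any library.

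Genes that make, modify and use these RNAs were taken as 10 lists of 117 genes, of which 115 passed the filter. Of these, 28 were called higher in bulls (24.3%) and 4 lower (3.48%), against 35.7% and 9.61% of all genes tested. The median log2 fold change of the 115 was 0.30, against 0.43 over all genes tested. The shares over all genes apply to each list below as well. Without calf 3 the counts were 30 and 2. With upper quartile scaling they were 18 and 8, and with quantile normalization 11 and 18. Of the genes named below, LSM4, LSM7, SART3, SLBP, ZNF473 and INTS1 were not called with either scaling, and SNRPD2, LSM2, SNRPC, SF3A1, CPSF2 and CPSF3 were called with upper quartile scaling but not with quantile normalization.

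Of 25 genes of export, assembly and modification, 6 were called higher and 1 lower. COIL, which encodes coilin, the marker protein of Cajal bodies, was at 10.9, 11.6 and 7.13 FPKM in the calves and at 254, 226 and 207 in the bulls, a log2 fold change of 4.42 ± 0.22 (adjusted p = 2.4e-05), and 4.22 without calf 3. DDX20 and GEMIN4, subunits of the SMN complex that loads the Sm ring, had log2 fold changes of 3.21 and 3.57. SNUPN, the import adaptor for assembled particles, had 2.88. PHAX, the export adaptor, was at 14.2, 15.8 and 34.3 in the calves and at 8.19, 9.65 and 8.47 in the bulls (-1.10 ± 0.34, adjusted p = 0.0361), and without calf 3 its log2 fold change was -0.71 and it was not called.

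Of 14 Integrator genes, whose complex cuts the 3′ end of nascent small nuclear RNAs, 3 were called higher and 0 lower. INTS12 was at 5.75, 4.92 and 7.04 FPKM in the calves and at 64.8, 70.8 and 51.6 in the bulls (log2 fold change 3.20 ± 0.20, adjusted p = 5.3e-05, 3.32 without calf 3), while INTS6 had 1.87 and INTS1 1.33. Of 12 transcription genes, 2 were called higher and 1 lower. SNAPC3, a subunit of the SNAPc factor of these promoters, was at 8.23, 8.65 and 12.4 and then at 55.3, 43.5 and 48.2 (2.23 ± 0.20, adjusted p = 0.000238). BDP1, a TFIIIB subunit used at U6 promoters, was at 16.5, 14.6 and 22.0 and then at 6.50, 8.05 and 6.81 (-1.19 ± 0.20, adjusted p = 0.00328).

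Of 10 genes of U7 and histone 3′ end processing, 6 were called higher and 0 lower, with a median log2 fold change of 1.13. SYMPK, the scaffold of the cleavage complex, was at 6.48, 8.38 and 9.74 FPKM in the calves and at 45.3, 42.0 and 43.3 in the bulls (2.29 ± 0.18, adjusted p = 0.000128). CPSF2, CPSF3, ERI1, SLBP and ZNF473 were the others. LSM10 and LSM11, which replace Sm proteins in the U7 ring, were not called, with log2 fold changes of 0.64 and -0.76. Over all genes tested 35.7% were called higher and 9.61% lower, with a median of 0.43. With upper quartile scaling 4 of the 10 were called higher and 2 lower, and with quantile normalization 2 and 3.

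Among the core proteins of the particles, 1 of 8 Sm core genes was called, SNRPD2 (1.51 ± 0.35, adjusted p = 0.0124, 1.11 without calf 3). It was at 43.6, 49.5 and 19.9 FPKM in the calves and at 98.9, 109 and 97.8 in the bulls. Of 7 genes of the U6 LSm ring 3 were called higher, LSM2, LSM4 and LSM7. LSM7, with the largest rise, went from 40.7, 40.3 and 15.1 to 86.6, 83.8 and 77.4 (1.47 ± 0.40, adjusted p = 0.0213, 1.01 without calf 3). With upper quartile scaling 1 gene of the ring was called, with quantile normalization 0, and LSM7 had an adjusted p of 0.0768 and 0.209. Of all genes tested 35.7% were called higher. Of 2 U1 protein genes tested, SNRPC was called (2.82 ± 0.84, adjusted p = 0.0298, 2.32 without calf 3). It was at 3.06, 32.4 and 3.13 in the calves and at 59.2, 60.9 and 52.4 in the bulls, so that the calves themselves were far apart.

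Of 12 U2 protein genes 2 were called higher, with SF3A1 at 9.11, 10.998 and 10.2 in the calves and 31.4, 25.8 and 32.2 in the bulls (1.47 ± 0.16, adjusted p = 0.000503). Of 16 genes of the U4/U6 and U5 particles, SART3, which rejoins U4 and U6 after splicing, was called higher (1.33 ± 0.14, adjusted p = 0.000438), but not with upper quartile scaling (0.95) or quantile normalization (0.67). SNU13, which binds U4, was called lower (-1.10 ± 0.17, adjusted p = 0.00213). SNU13 was at 37.6, 40.9 and 30.1 in the calves and at 17.3, 15.0 and 16.5 in the bulls.

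Of 9 minor spliceosome genes tested, 3 were called higher and 1 lower. ZMAT5, a U11/U12 protein, was at 6.82, 6.50 and 4.56 FPKM in the calves and at 42.5, 37.7 and 28.0 in the bulls (2.41 ± 0.23, adjusted p = 0.000284). RNPC3, which joins U11 to U12, was at 15.8, 14.6 and 31.5 in the calves and at 5.92, 8.01 and 8.20 in the bulls (-1.30 ± 0.32, adjusted p = 0.0157), and was not called without calf 3 (-0.96).

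**Figure D5:**
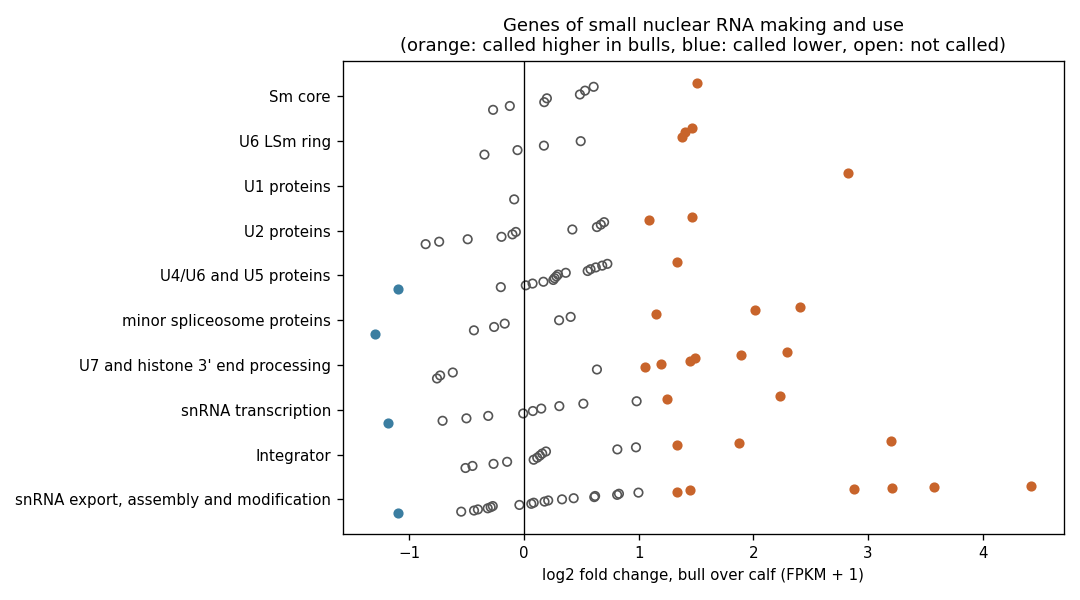
Log2 fold change, bull over calf, on the log2(FPKM + 1) scale (horizontal axis) of the 115 tested genes of small nuclear RNA making and use, 1 point per gene, by list (vertical axis). Orange points were called higher in bulls (28), blue points lower (4) and open points were not called (83). COIL stands farthest to the right, at 4.42.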

How the data were processed

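Total RNA of testis was measured in 6 libraries. The authors removed low-quality and ribosomal reads, mapped the rest with TopHat2 and assembled transcripts with StringTie, and deposited FPKM values of genes and transcripts. Which tool made the gene values is not given in the sources used here. Scaffold names place the coordinates on an ARS-UCD assembly, although the Methods name another. The paper's supplement lists raw and clean reads of each library, which were not used here. The coverage of single RNAs was read only from the step described above, and counting intervals were not computed.

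Loci and gene lists were chosen with earlier results of these data known. Values were tested as log2(FPKM + 1) with limma 3.58.1 (R 4.3.3), with an empirical Bayes trend and Benjamini-Hochberg adjustment over all features that reached FPKM 1 in 3 libraries. The test was checked on simulated data. Loci named were those of classes with at most 5 loci, the 3 highest of other classes, and the 3 largest rises and falls among called loci, plus the largest called rise and fall of each gene list. Sums of a class were not tested. Other pseudocounts, filters, scalings and sets of libraries were tried. Sequences were not analysed here, and figures were drawn with matplotlib 3.10.9.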

Additional observations from a re-analysis of the deposited data

How the results depend on the processing

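The count of loci called higher in bulls, 32, was 47 with a pseudocount of 0.1, 42 without the filter, 26 with upper quartile scaling and 30 to 37 when 1 library was left out. It was 17 with quantile normalization, 5 with the annotated RNAs of the transcript table, and 6 with those and without calf 3, an alternative chosen after seeing the data. The count called lower, 0, was 3 with a pseudocount of 0.1, 1 without the filter, 7 with quantile normalization, 2 with upper quartile scaling and 0 to 2 when 1 library was left out. Equal replicate numbers do not pair these animals (correlations of 0.03, 0.02 and 0.03), and a replicate block gave 31 higher and 0 lower, and left the U1 locus ENSBTAG00000051054 uncalled (adjusted p = 0.0717). Pathway genes called higher, 28, were 11 with quantile normalization, 18 with upper quartile scaling and 24 to 32 when 1 library was left out, and those called lower, 4, were 18, 8 and 2 to 4. The median log2 fold change of all genes tested moved from 0.43 to 0.10 with upper quartile scaling and to -0.13 with quantile normalization, and that of the loci from 0.71 to 0.53 and 0.17.

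With quantile normalization the log2 ratios of the gene table's sums were 0.0846 for U1, -0.38 for U2, 0.64 for U4, 0.15 for U5, -0.16 for U6, -0.21 for U12, 1.34 for U4atac, -0.12 for U6atac, 0.10 for U7 and -0.0793 for all loci. With upper quartile scaling they were 0.49 for U1, -0.00494 for U2, 0.97 for U5, 0.59 for U12, 2.02 for U4atac and 0.54 for all. With the annotated RNAs alone they were 0.31 for U4, 1.74 for U5, -1.28 for U6, -3.04 for U12, 2.85 for U4atac, -1.09 for U6atac and 0.0332 for all, and without calf 3 as well 0.65, 1.85, -0.52, -2.68, 2.76, -0.29 and 0.37. Leaving out 1 library gave 0.79 to 1.06 for U1, 0.74 to 1.49 for U6, 0.64 to 1.86 for U6atac, 0.13 (without bull 2) to 1.24 for U7, and 0.78 to 1.21 for all. The cause was not tested. Over counts and sums together, 107 alternative values stayed within 1.5 times the count or 1 SD of the sum, and 51 did not.

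Among the named loci, signs reversed for ENSBTAG00000052292 (-0.21 with quantile normalization, -0.0597 with upper quartile scaling), ENSBTAG00000051514 (-0.11 with quantile normalization, -0.18 without calf 3, also in the transcript table), ENSBTAG00000042215 (0.00539 without calf 2, and -1.07 and called without calf 3), ENSBTAG00000043100 (-0.56, -0.22, and -0.0637 without calf 3 to 0.14 without bull 1), ENSBTAG00000042546 (-0.57, -0.23, and -0.10 without calf 1 to 0.12 without calf 3) and ENSBTAG00000044624 (-0.0109 with quantile normalization, and -0.11 without bull 2 to 0.88 without bull 3). None of these was called in the gene table with all libraries. Most annotated RNAs had a coverage too low for any comparison.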
